A study of Mus musculus with 4 samples.

Results

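The genes described here are the NFAT transcription factors (*Nfatc1*, *Nfatc2*, *Nfatc3*, *Nfatc4* and *Nfat5*), the calcineurin subunits *Ppp3ca*, *Ppp3cb* and *Ppp3r1*, and the calcineurin regulator *Rcan1*. Members were taken by gene name: every non-control probe that the array annotates with 1 of these 9 names was used, which gave 28 probes of 41174. RNA came from LSK cells of mouse bone marrow (lineage-negative, Sca-1+, c-Kit+), the compartment that holds hematopoietic stem cells and early progenitors. *Meis1*-KO cells came from C57BL/6J mice carrying Mx1-Cre and 2 floxed *Meis1* alleles (Meis1 fl/fl), in which exon 8 is removed after poly(I:C), a double-stranded RNA that induces interferon. *Meis1*-WT cells came from Meis1 fl/fl mice of the same strain without Cre, so both groups carry the floxed alleles. Poly(I:C) was injected 4 times at 1.5 µg per g body weight in mice aged 4 to 8 weeks. The controls are described as poly(I:C)-treated in one place and as sham-treated in another, and which holds for these arrays was not settled. The Mx1 promoter responds to interferon and is not limited to blood cells. Cells of 6 mice were pooled for each array, 2 pools per genotype, 1 week after poly(I:C), and 10 ng of RNA was labeled. Arrays KO 1 and WT 1 lay on one slide (slide 1) and KO 2 and WT 2 on the other (slide 2).

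Calcineurin is a phosphatase made of a catalytic A subunit and a calcium-binding B subunit, and it is switched on by calcium and calmodulin. It removes phosphates from NFATc proteins in the cytoplasm, which then enter the nucleus and bind DNA with partners such as AP-1. *Nfat5* shares the DNA-binding domain but lacks the calcineurin docking region and is known for its answer to osmotic stress. The pathway is best known from T cell activation, and NFATc proteins are controlled in large part by phosphorylation, which arrays do not measure.

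None of the NFAT or calcineurin probes had a difference between *Meis1*-KO and *Meis1*-WT that passed the test against the spread between arrays. Probes entered the test where both arrays of 1 genotype or the other read well above background, and 24 of the 28 did so. Of these, 19 were above background on all 4 arrays, 4 on 1 *Meis1*-KO array and 1 on 0 *Meis1*-KO arrays. The last 5 entered through *Meis1*-WT, which favors a difference below 0, and all 5 lay below 0. With the study's criteria (unadjusted p under 0.01 and over 2-fold, here from limma), 0 of 24 probes were called, against 0.736% of the 22007 probes tested on the array (0.600% lower and 0.136% higher in *Meis1*-KO). An unadjusted limma p under 0.05 was reached by 0 of 24 probes, against 2.81% of all. The limma adjusted p of the members lay between 0.983 and 0.992, where the lowest on the whole array was 0.467. With the slide as a block the counts were again 0 of 24, against 1.99% by the criteria and 6.07% at an unadjusted p under 0.05. Leaving out array KO 1 gave 3 of 24 called probes, 1 of *Nfatc1* and 2 of *Nfatc2*, all lower, where 7.75% of all tested probes were called lower and 10.1% in either direction. *Meis1*-KO is then KO 2 alone, its spread is assumed to be that of the *Meis1*-WT arrays, and KO 2 was not above background at these 3 probes. Exact permutation of 2 against 2 arrays cannot give a p under 0.333.

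Values are log2 processed signal minus the array's own 75th percentile, so 0 is the level of a probe at that percentile. All differences are *Meis1*-KO minus *Meis1*-WT on that scale. Of the 24 tested probes, 10 lay above 0 and 14 below, with a median of -0.13. The array as a whole had a median of 0.08 and 43.7% of tested probes below 0. At the brightest tested probe of each gene, 4 genes were above 0 and 5 below. Genotype differences of the same sign on both slides were seen at 14 probes, 7 lower and 7 higher (51.2% of all tested probes had the same sign). The other 10 probes had opposite signs on the 2 slides.

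Array KO 2 stood apart from the other 3 arrays. Its correlation with them over all tested probes was 0.891 to 0.916, against 0.956 to 0.967 among the others. It was also the dimmest, with 49.2% of spots well above background against 54.7% to 57.4%, and 19 of the 28 NFAT and calcineurin probes were above background on it, against 24 or 25 on the others. KO 2 was the lowest of the 4 arrays at 12 of the 24 tested probes (32.3% of all tested) and the highest at 10 (44.9% of all tested). Without KO 2, 18 of the 24 differences changed sign. *Meis1* itself, which checks the labels, had values of 0.25 and 0.22 in *Meis1*-KO and 1.02 and 1.45 in *Meis1*-WT at its brightest probe, a difference of -0.997 (SE 0.44). The LSK markers *Kit* and *Ly6a* (c-Kit and Sca-1), *Cd34*, *Gata2* and *Cd48* were above background on every array. Markers of other cells also varied. For 6 erythroid genes the summed processed signal was 14066 and 22130 in *Meis1*-KO against 11743 and 3564 in *Meis1*-WT. These sums, here and below, are not scaled to the array's 75th percentile. That percentile was a signal of 90.3 on KO 2 and 146.7 to 154.1 on the other arrays, so sums on KO 2 read low. Of the tested erythroid genes *Rhag* met the criteria at 1.72, and *Hbb-b1* gave 1.86, *Epor* 0.53, *Alas2* -0.08 and *Klf1* -0.61. The 6 megakaryocyte genes summed to 1511 and 1165 against 1574 and 5636, and the granulocyte and monocyte genes to 24753 and 9955 against 26527 and 10168. Of the tested granulocyte and monocyte genes *Elane* met the criteria at -1.57, but *Mpo* gave 0.56, *Lyz2* 0.31, *S100a8* -0.18, *Csf1r* -0.22 and *S100a9* -0.26. The part of these cells in the NFAT and calcineurin values was not tested. In RNA from pooled cells, fewer cells of a type and less RNA per cell cannot be told apart.

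**Figure D1:**
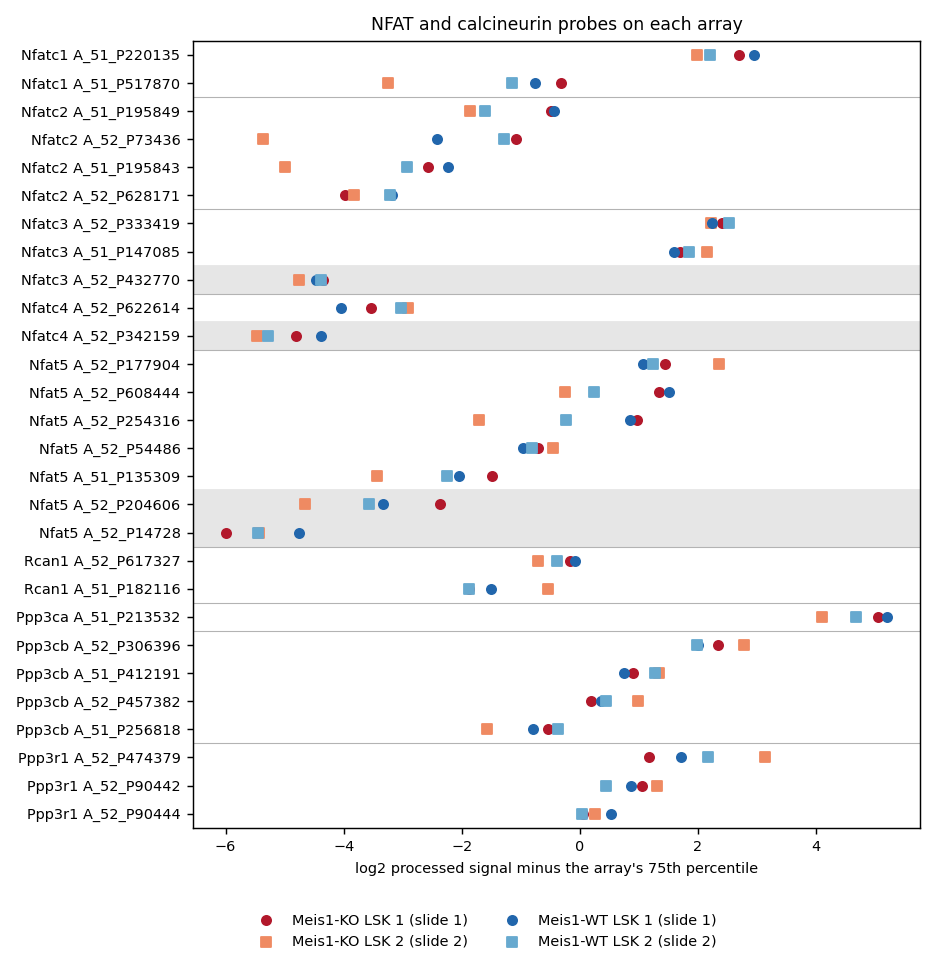
Each row is 1 NFAT or calcineurin probe and each symbol 1 array, placed at its log2 processed signal minus that array's 75th percentile (circles, slide 1; squares, slide 2; red and orange, *Meis1*-KO; blue, *Meis1*-WT; grey rows, the 4 untested probes). KO 2 lies at the left or right end of most rows, and the 2 genotypes are apart at 5 tested rows.

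The sequences of 5 probes are shown because probes of *Nfatc2*, *Nfat5* and *Ppp3r1* gave unlike values within a gene. All are printed 5′ to 3′ as the array annotation lists them, with positions in mm9. The first 2 *Nfatc2* probes share 19 bases, marked by capitals, and 30 of their 60 bases are shown. The annotation places the first at chr2:168305341-168305400 and the second, over 19 bases only, at chr2:168301910-168301928.
Nfatc2 A_51_P195849, bases 31 to 60: cagccttgcccTGACAGGACCACCTGTCCC
Nfatc2 A_51_P195843, bases 1 to 30: TGACAGGACCACCTGTCCCaacttctcagc
Nfatc2 A_52_P628171, chr2:168361757-168361816, minus strand: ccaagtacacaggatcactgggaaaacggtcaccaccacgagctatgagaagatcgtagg
Nfat5 A_52_P254316, chr8:109875407-109875466, plus strand: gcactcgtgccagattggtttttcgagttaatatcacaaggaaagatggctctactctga
Ppp3r1 A_52_P90442, chr11:17093001-17093060, plus strand: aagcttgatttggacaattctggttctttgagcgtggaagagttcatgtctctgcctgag
Whether the 2 *Nfatc2* probes with shared bases give readings that depend on each other was not tested.

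*Nfatc2* (NFAT1), a calcineurin-dependent factor abundant in resting T cells, had a difference below 0 at all 4 of its probes, but 3 of these entered the test through *Meis1*-WT alone, so no direction is read from the count. The study listed *Nfatc2* among genes strongly reduced without *Meis1*, from these same arrays, so this direction is not independent evidence. Here 0 of the 4 *Nfatc2* probes met the study's criteria, with limma in place of the study's own software. At the brightest probe, A_51_P195849, the arrays read -0.48 and -1.86 in *Meis1*-KO and -0.45 and -1.61 in *Meis1*-WT, a difference of -0.15 (SE 0.66, limma adjusted p = 0.990). Both slide 2 arrays were lower than both slide 1 arrays there, and within each slide the genotypes were close (-0.04 and -0.25). A_51_P195843, which shares bases with it, read -2.57 and -5.00 against -2.23 and -2.93, a difference of -1.20 (SE 0.83, limma adjusted p = 0.983). Most of that came from slide 2 (-2.07, against -0.33 on slide 1), and KO 2 was not above background. With the slide as a block this probe had the lowest p of all members, with a limma adjusted p = 0.827. Thus 2 probes that share 19 bases gave differences of -0.15 and -1.20.

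The other 2 *Nfatc2* probes lie toward the 5′ end. A_52_P73436 (chr2:168359185-168359244), which matches a cDNA clone only, read -1.08 and -5.37 in *Meis1*-KO and -2.42 and -1.28 in *Meis1*-WT, a difference of -1.38 (SE 1.33). This was the largest difference of all member probes, and the slides opposed each other, with 1.34 on slide 1 and -4.10 on slide 2. A_52_P628171, printed above, read -3.98 and -3.82 against -3.18 and -3.22. Here the genotypes did not overlap and the 2 slides gave -0.80 and -0.60, a difference of -0.70 (SE 0.42) with the lowest p of the members (limma adjusted p = 0.983). The probe was above background on both *Meis1*-WT arrays and on 0 of the *Meis1*-KO arrays, so its level in *Meis1*-KO is only a bound. In the main processing that bound was 1.34-fold lower. The probe gave 0.17 with normexp background correction, so the bound does not hold there. It was the only tested member probe whose arrays did not overlap in the lower direction (10.9% of all tested probes did so), and since it entered the test through *Meis1*-WT, neither this nor its p supports a difference.

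With single arrays left out, 3 of the 4 *Nfatc2* probes changed sign. Without KO 1, A_52_P73436 gave -3.53 and A_51_P195843 gave -2.41, and both met the criteria with KO 2 as the single *Meis1*-KO array. Without KO 2 the values were 0.77 and 0.01. A_51_P195849 gave 0.54 without KO 2 and 0.43 without WT 1. A_52_P628171 stayed between -0.79 and -0.62 whichever array was left out, though with arrays that do not overlap its sign could not change. With normexp background correction all 4 probes lay slightly above 0, at 0.10 to 0.20. Of 10 T lineage markers, the cells in which *Nfatc2* is best known, 5 and 4 were above background in *Meis1*-KO and 5 and 6 in *Meis1*-WT. *Cd3e* and *Cd3g* were above it on no array, whereas *Lat* and *Cd28* were above it on all 4, *Lat* with a difference of 0.13 and *Cd28* of -0.22. *Cd8a* gave -1.34 (SE 0.43) and *Cd5* gave 2.06 (SE 0.59), and neither met the criteria, though *Cd5* and the other *Cd28* probe did with the slide as a block. *Cd5* was above background on 2 *Meis1*-KO and 0 *Meis1*-WT arrays, so it entered through *Meis1*-KO, which favors a value above 0. *Cd8a* was above it on 1 *Meis1*-KO and 2 *Meis1*-WT arrays and entered through *Meis1*-WT. Neither value supports a difference. The unscaled summed processed signal of the 10 T lineage markers was 255 and 223 in *Meis1*-KO and 290 and 377 in *Meis1*-WT. On the scaled log2 values their mean was -3.98 and -3.20 against -3.90 and -3.10. The part of these markers in the *Nfatc2* values was not tested.

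*Nfatc1* (NFAT2), whose gene is itself an NFAT target in many cells, lies on chromosome 18 and was read by 2 probes. The brighter, A_51_P220135, read 2.69 and 1.98 in *Meis1*-KO and 2.95 and 2.20 in *Meis1*-WT. Slide 2 was lower than slide 1 in both genotypes, and the difference of -0.24 (SE 0.51, 95% interval -1.48 to 0.99) was alike on the slides, at -0.27 and -0.22. A_51_P517870 read -0.32 and -3.24 against -0.77 and -1.16, a difference of -0.82 (SE 0.94). Only 1 of its 2 *Meis1*-KO arrays was above background, and the slides opposed each other, with 0.44 on slide 1 and -2.08 on slide 2. Without KO 1 this probe met the criteria at -2.28, and without KO 2 it gave 0.64.

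*Nfatc3* (NFAT4), on chromosome 8, had the difference nearest to 0 at the brightest probe. This probe, A_52_P333419 (chr8:108615965-108616024), read 2.40 and 2.22 in *Meis1*-KO and 2.23 and 2.52 in *Meis1*-WT, a difference of -0.06 (SE 0.43, 95% interval -1.10 to 0.98). The second, A_51_P147085, read 1.70 and 2.15 against 1.59 and 1.84, a difference of 0.21 (SE 0.44). The genotypes overlapped at both probes, and the remaining probe, A_52_P432770, was above background on no array. Scaling to the median turned the first value to 0.02.

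*Nfatc4* (NFAT3), best known outside the blood, in heart and nervous tissue, was at the edge of detection. The probe designed on its RefSeq mRNA, A_52_P342159, was above background on no array. The other, A_52_P622614 (chr14:56446149-56446208), rests on a cDNA clone and read -3.54 and -2.90 in *Meis1*-KO and -4.05 and -3.03 in *Meis1*-WT. The genotypes overlapped, with a difference of 0.31 (SE 0.54).

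*Nfat5* had the most probes, 7, of which 5 were tested, and they did not share a direction. The brightest, A_52_P177904 (chr8:109848852-109848911, from a cDNA clone), read 1.44 and 2.36 in *Meis1*-KO and 1.07 and 1.23 in *Meis1*-WT. Both *Meis1*-KO arrays were above both *Meis1*-WT arrays, with a difference of 0.75 (SE 0.49, 95% interval -0.45 to 1.95, limma adjusted p = 0.983). A_52_P54486, 2.95 kb downstream and also from a cDNA clone, read -0.71 and -0.46 against -0.96 and -0.82, again without overlap, with a difference of 0.30 (SE 0.43). The 3 tested probes on the RefSeq mRNA, which lie 26.6 to 54.2 kb downstream of the first, all gave values below 0.

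Of those 3, A_52_P608444 read 1.33 and -0.25 in *Meis1*-KO and 1.50 and 0.23 in *Meis1*-WT, a difference of -0.32 (SE 0.71). A_52_P254316, printed above, read 0.97 and -1.71 against 0.85 and -0.23, a difference of -0.68 (SE 0.92). A_51_P135309, the dimmest, read -1.49 and -3.43 against -2.04 and -2.26, a difference of -0.31 (SE 0.70), with 1 *Meis1*-KO array above background. At all 3 probes KO 2 was the lowest array, and without it they gave 0.47, 0.66 and 0.66. The 2 upstream probes kept their sign under all 14 alternatives. Since their arrays do not overlap, leaving out 1 array cannot change that sign, and several other settings leave the difference itself unchanged. With 1 array left out the first ran from 0.29 to 1.20 and the second from 0.18 to 0.43. A_51_P135309 also turned to 0.24 with normexp correction. Of the 2 untested *Nfat5* probes, A_52_P14728 was above background on no array and A_52_P204606 on 1 array of each genotype.

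**Figure D2:**
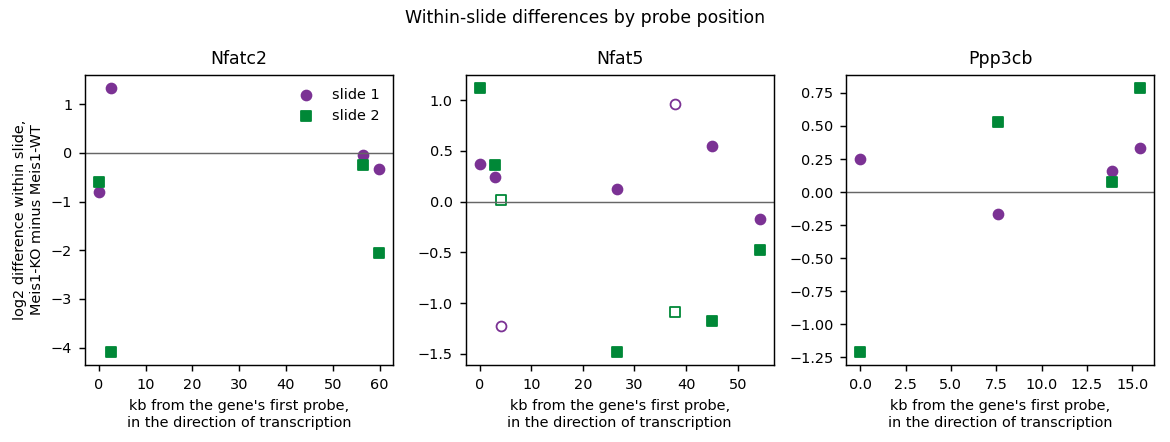
Each symbol is the *Meis1*-KO minus *Meis1*-WT log2 difference within 1 slide (circles, slide 1; squares, slide 2; open, untested) at 1 probe, against the distance in kb from the gene's first probe in the direction of transcription. *Nfatc2* spreads from 1.34 to -4.10 at 1 probe, and *Nfat5* lies above 0 on both slides only at its 2 most upstream tested probes.

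Kinds of probe were also counted over all members, including the 5 tested *Nfat5* probes in which the contrast was seen. The 18 tested probes on RefSeq mRNAs had 12 values below 0 and 6 above, with a median of -0.18 (0.07 over all tested RefSeq probes). The 6 from cDNA clones alone had 2 below and 4 above, with a median of 0.24 (0.13 over all such probes). Outside *Nfat5*, the tested cDNA probes gave -1.38, -0.48, 0.18 and 0.31, on both sides of 0. Some RefSeq values below 0 entered the test through *Meis1*-WT alone. These counts therefore do not support the contrast, and no test of it was made.

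Among the calcineurin subunits, *Ppp3ca*, the catalytic A-alpha subunit, was read by 1 probe, A_51_P213532 (chr3:136598468-136598525). It read 5.04 and 4.09 in *Meis1*-KO and 5.21 and 4.67 in *Meis1*-WT. Slide 2 was the lower in both genotypes, and *Meis1*-KO was the lower on both slides (-0.16 and -0.58), with a difference of -0.37 (SE 0.52, 95% interval -1.63 to 0.89). Without KO 2 the value was 0.11.

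*Ppp3cb*, the catalytic A-beta subunit, which serves T cell development, was read by 4 probes. The brightest and most downstream, A_52_P306396 (chr14:21319265-21319324), read 2.34 and 2.77 in *Meis1*-KO and 2.00 and 1.99 in *Meis1*-WT. The genotypes did not overlap, and the difference was 0.56 (SE 0.44, 95% interval -0.50 to 1.62, limma adjusted p = 0.983). It lay above 0 on both slides (0.34 and 0.79) and under all 14 alternatives, 0.34 to 0.78 with 1 array left out. Arrays that do not overlap fix the sign on the slides and with 1 array left out, so this adds no support. The next probe upstream, A_51_P412191, read 0.90 and 1.34 against 0.74 and 1.26, with overlap and a difference of 0.12. A_52_P457382 gave 0.18 and the most upstream, A_51_P256818, gave -0.48 (SE 0.52), both with overlap and both from cDNA clones. At that last probe the slides opposed each other, with 0.25 on slide 1 and -1.21 on slide 2.

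*Ppp3r1*, the regulatory B-alpha subunit with its calcium-binding EF hands, was read by 3 probes. The brightest, A_52_P474379 (chr11:17100321-17100380), read 1.17 and 3.13 in *Meis1*-KO and 1.72 and 2.17 in *Meis1*-WT. The 2 *Meis1*-KO arrays were thus the lowest and the highest, and the difference was 0.21 (SE 0.71). A_52_P90442, printed above, read 1.06 and 1.31 against 0.87 and 0.44, without overlap, with a difference of 0.53 (SE 0.44, 95% interval -0.54 to 1.60, limma adjusted p = 0.983). With 1 array left out it ran from 0.31 to 0.75. A_52_P90444 read 0.06 and 0.25 against 0.52 and 0.03, a difference of -0.12 with overlap. *Ppp3r1* A_52_P90442, *Ppp3cb* A_52_P306396 and the 2 *Nfat5* probes were the 4 of 24 tested probes whose arrays did not overlap in the higher direction (16.0% of all tested probes did so).

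*Rcan1*, which binds and inhibits calcineurin and is itself an NFAT target, had 2 probes of opposite sign. The brighter, A_52_P617327 (chr16:92392763-92392822), read -0.17 and -0.71 in *Meis1*-KO and -0.09 and -0.39 in *Meis1*-WT, a difference of -0.20 (SE 0.45, 95% interval -1.31 to 0.90). The other, A_51_P182116, read -1.89 and -0.54 against -1.51 and -1.89, a difference of 0.48 (SE 0.58). The genotypes overlapped at both, and the slides opposed each other at the second (-0.38 and 1.35).

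The precision of these values was limited by the 2 arrays per genotype. The SE of the tested member probes ran from 0.42 to 1.33, with a median of 0.52 (0.49 over all tested probes). All 24 intervals of 95% included 0, and all 24 reached past 1 or -1, so a 2-fold difference lay within the interval of every tested probe in at least 1 direction. The median SD within a genotype over all tested probes was 0.50 in *Meis1*-KO and 0.26 in *Meis1*-WT.

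**Figure D3:**
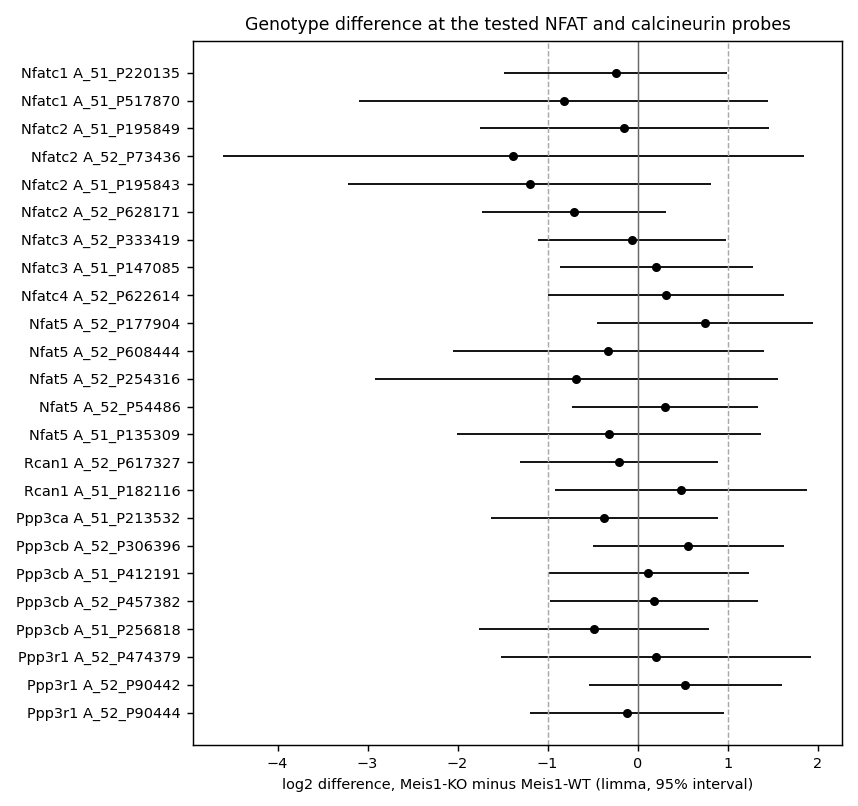
Points are the limma log2 differences, *Meis1*-KO minus *Meis1*-WT, of the 24 tested NFAT and calcineurin probes, bars are 95% intervals, and dashed lines mark a 2-fold difference. All 24 intervals include 0, and all 24 pass at least 1 dashed line.

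Around these 9 genes, 68 genes of the pathway were grouped by role, 67 had a probe and 53 a tested one. At the brightest tested probe of each gene, 30 lay below 0 and 23 above, with a median of -0.10 (0.13 over 14901 genes). Of their 94 tested probes, 1 met the criteria, lower in *Meis1*-KO, and none was higher, against 0.736% of all tested probes. With the slide as a block, 5 met them, all lower, against 1.99% of all, and these belonged to *Egr2*, *Egr3*, *Irf4* and *Fosl2*. All but the *Fosl2* probe entered the test through *Meis1*-WT, so this count supports no direction.

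Of 13 genes for calcium entry and calmodulin, which feed calcineurin, 9 lay below 0 and 4 above (median -0.27, with -0.04 without KO 2 and 0.04 with normexp correction). The lowest was *Itpr1*, a calcium channel of the endoplasmic reticulum, at -0.77 (0.41 on slide 1 and -1.95 on slide 2). The highest was *Orai3*, a calcium channel of the cell surface, at 0.69 (0.23 on slide 1 and 1.14 on slide 2). Of 6 tested calcineurin inhibitors and anchors, 2 lay below and 4 above (median 0.13), from the anchor *Akap5* at -0.56 to *Chp1*, a calcineurin B homolog, at 0.52. Of 8 tested NFAT kinases, which return NFAT to the cytoplasm, 3 lay below and 5 above (median 0.08, with -0.07 after quantile normalization and -0.06 with normexp correction), from *Gsk3b* at -0.25 to *Csnk1a1* at 0.34. The other catalytic subunit, *Ppp3cc*, gave 0.02, and *Ppp3r2* was not tested. None of these genes had a probe that met the criteria.

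Of 13 DNA-binding partners, 9 lay below 0 and 4 above, the same counts as for calcium entry. Their median was -0.29, and with 1 array left out it ran from -0.96 (without KO 1) to 0.06 (without KO 2). Among them, *Gata3*, a T cell and stem cell factor, was the highest at 0.26, with overlap (1.94 and 1.55 in *Meis1*-KO, 1.68 and 1.30 in *Meis1*-WT). *Irf4*, a lymphoid factor that binds DNA with NFAT, was the lowest, reading -3.94 and -3.89 in *Meis1*-KO and -0.37 and -2.73 in *Meis1*-WT, a difference of -2.36 (SE 0.79) with 1 *Meis1*-KO array above background. It was -0.51 with normexp correction and -1.18 without WT 1. *Irf4* also marks plasma cells, and the 7 markers of these cells, *Irf4* included, varied among the arrays. Their unscaled summed processed signal was 752 and 2411 in *Meis1*-KO and 4189 and 2145 in *Meis1*-WT, and 5, 5, 7 and 6 of them were above background. Their part in the *Irf4* value was not tested. *Fosl2*, an AP-1 subunit, read 1.77 and -1.13 against 2.99 and 1.13, a difference of -1.74 (SE 1.06) that ran from -3.19 without KO 1 to -0.30 without KO 2.

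Of 18 cytokine and activation targets, 7 were tested, 6 lay below 0 and 1 above, with a median of -1.27. The median was -0.58 with normexp correction and -0.69 over the 4 genes above background on all arrays. It was -0.08 without KO 2, -0.73 without WT 1, -1.91 without WT 2 and -2.01 without KO 1. *Ptgs2*, the inducible cyclooxygenase, was the highest at 0.01. Among those not tested, *Il2*, *Il3*, *Il13*, *Csf2*, *Ifng*, *Cd40lg*, *Fasl* and *Il2ra*, 8 in all, were above background on no array, *Il4* and *Il5* on at most 1 and *Ctla4* on at most 2. *Egr3*, an early growth response factor that NFAT induces in T cells, held the only pathway probe that met the criteria, A_51_P437198 (chr14:70478827-70478886). It read -4.22 and -5.44 in *Meis1*-KO and -1.98 and -2.77 in *Meis1*-WT, without overlap, a difference of -2.45 (SE 0.59, limma adjusted p = 0.983). It was above background on 0 *Meis1*-KO arrays and entered the test through *Meis1*-WT, which favors a lower value, so its call is no support for a change of the list. Its level in *Meis1*-KO is only a bound, 2.55-fold lower in the main processing, which does not hold with normexp correction. Of the 13 alternatives that gave it a value, 7 lost the call. The difference was then -2.68 with quantile normalization, -0.05 with normexp correction, and -2.45 as before with the methods' t-test and with an intensity trend. The other 3 were leaving out KO 2 (-1.84), WT 1 (-2.05) or WT 2 (-2.84). It was not tested where all 4 arrays had to be above background. The brightest *Egr3* probe read -2.19 and -5.35 against 0.02 and -1.82, a difference of -2.87 (SE 1.12), or -0.58 with normexp correction, -1.29 without KO 2 and -4.45 without KO 1. *Egr2*, of the same family, read 0.10 and -5.29 against 2.30 and 0.63, a difference of -4.06 (SE 1.66), or -1.80 with normexp correction, -1.36 without KO 2 and -6.75 without KO 1, and KO 2 was not above background at either probe.

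The 5 tested tonicity targets of *Nfat5* lay mostly above 0, 4 against 1, with a median of 0.24 (0.04 without KO 2 to 0.49 without KO 1, and 0.03 with normexp correction). *Slc5a3*, the myo-inositol transporter, was the highest at 0.72, and its arrays did not overlap (-1.82 and -0.74 against -2.06 and -1.95). Most of that came from slide 2 (1.21, against 0.24 on slide 1). *Slc6a6*, the taurine transporter, was the lowest at -0.02. No probe of this list met the criteria, with or without the slide as a block.

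**Figure D4:**
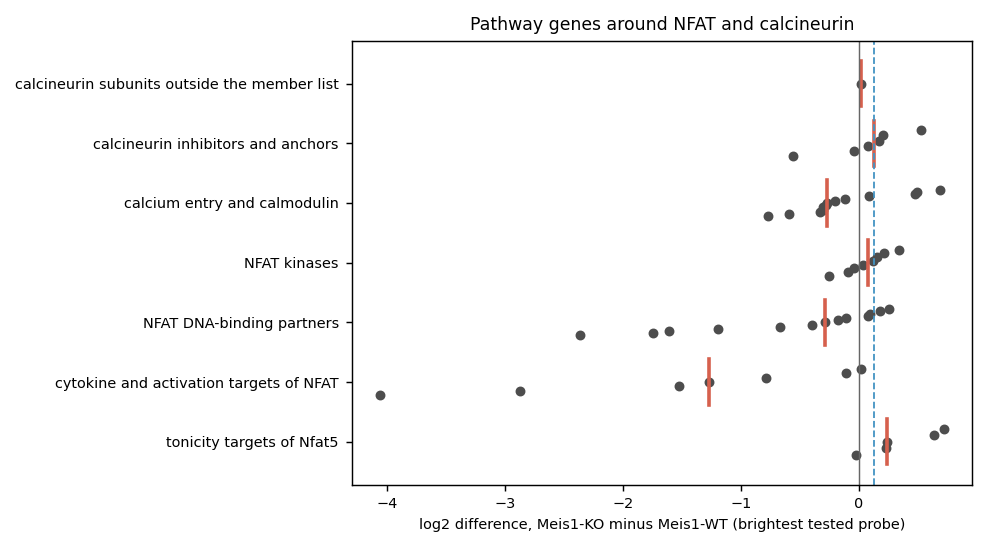
Points are genes, placed at the log2 difference (*Meis1*-KO minus *Meis1*-WT) of their brightest tested probe, red bars are list medians, and the dashed line is the median over 14901 genes. Activation targets reach -4.06 with a median of -1.27, which is -0.69 over the 4 genes above background on all arrays and -0.08 without KO 2.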

How the data were processed

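The authors hybridized amplified RNA of 4 LSK pools to one-color Agilent mouse arrays (mm9 annotation) and deposited, per array, the spot intensity written by Feature Extraction, 9.5.3.1 per the file headers and 9.1 in the submitters' processing notes. The processed signal is background-subtracted, and a surrogate value replaced 25.2% to 33.2% of spots per array. Here, control and outlier spots were left out, each array's 75th percentile was subtracted from the log2 processed signal, and spots of a probe were averaged. Probes well above background on both *Meis1*-KO or both *Meis1*-WT arrays were tested. Genotypes were compared over 22007 probes with limma 3.58.1 (R 4.3.3), checked on simulated data, with Benjamini-Hochberg adjustment. "Brightest" is the highest mean over the 4 arrays. All NFAT and calcineurin probes are named, and in each pathway list the highest and lowest gene and any gene meeting the criteria. *Fosl2*, the named markers and the untested targets were chosen after their values were seen. The genes and lists were chosen with earlier results of these data known. The numbers of the pools coincide with the slides, and same-slide deviations correlated at 0.266 between genotypes. That the pools held separate mice is not stated, so the spread may be partly technical. Of 27159 probes with a RefSeq accession, 26204 could be named through RefSeq, and all 19 such NFAT and calcineurin probes kept their array name.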

Additional observations from a re-analysis of the deposited data

How the results depend on the processing

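Over the 14 alternatives, 331 values of the 24 tested probes were recomputed. The number of NFAT and calcineurin probes meeting the criteria ran from 0 to 3, and it was above 0 only without KO 1 (*Nfatc1* A_51_P517870 at -2.28, *Nfatc2* A_52_P73436 at -3.53 and A_51_P195843 at -2.41), 33 values changed sign, and 4 probes never did (*Nfat5* A_52_P177904 and A_52_P54486, *Ppp3cb* A_52_P306396, *Ppp3r1* A_52_P90442). Those 4 are the probes whose *Meis1*-KO arrays both lay above both *Meis1*-WT arrays, so no run with 1 array left out could change their sign. The cause of the sign changes at the other probes was not tested. With 2 arrays per genotype, and dim probes at or under background on KO 2, a 2-fold difference lay within every interval in at least 1 direction.

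Median scaling turned *Nfatc3* A_52_P333419 to 0.0226 and *Slc6a6* to 0.0623. Normexp correction turned *Nfatc2* A_51_P195849 to 0.13, A_52_P73436 to 0.10, A_51_P195843 to 0.20 and A_52_P628171 to 0.17, *Nfat5* A_51_P135309 to 0.24, *Ppp3cb* A_51_P412191 to -0.0099 and *Akap5* to 0.14.

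With 1 array left out, values ranged as follows. *Nfatc1* A_51_P220135 ran from -0.62 to 0.13 and A_51_P517870 from -2.28 to 0.64. *Nfatc2* A_51_P195849 ran from -0.83 to 0.54, A_52_P73436 from -3.53 to 0.77 and A_51_P195843 from -2.41 to 0.0132. *Nfatc3* A_52_P333419 ran from -0.207 to 0.0805 and A_51_P147085 from -0.0151 to 0.43, and *Nfatc4* from -0.20 to 0.83. *Nfat5* A_52_P608444 ran from -1.12 to 0.47, A_52_P254316 from -2.02 to 0.66 and A_51_P135309 from -1.29 to 0.66. *Rcan1* A_52_P617327 ran from -0.475 to 0.0660 and A_51_P182116 from -0.19 to 1.16, and *Ppp3ca* from -0.84 to 0.11. *Ppp3cb* A_51_P412191 ran from -0.14 to 0.38, A_52_P457382 from -0.22 to 0.58 and A_51_P256818 from -0.997 to 0.0349. *Ppp3r1* A_52_P474379 ran from -0.77 to 1.19 and A_52_P90444 from -0.37 to 0.13. Outside the 9 genes, *Ppp3cc* ran from -0.21 to 0.25, *Akap5* from -1.47 to 0.35, *Itpr1* from -2.30 to 0.76, *Gsk3b* from -0.585 to 0.0861, *Ptgs2* from -1.28 to 1.31 and *Slc6a6* from -0.27 to 0.22. The 4 probes that never changed sign ran from 0.29 to 1.20 (*Nfat5* A_52_P177904), 0.18 to 0.43 (A_52_P54486), 0.34 to 0.78 (*Ppp3cb* A_52_P306396) and 0.31 to 0.75 (*Ppp3r1* A_52_P90442). The median of the calcineurin inhibitors and anchors ran from -0.0218 to 0.321, and that of the NFAT kinases from 0.0355 to 0.283, with -0.07 after quantile normalization and -0.06 with normexp.

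Over all tested probes, 132 lower and 30 higher probes met the criteria. The counts, lower and higher, were 47 and 2 with normexp, 43 and 10 when all 4 arrays had to be above background, 85 and 16 with an intensity trend, and 23 and 7 by the methods' t-test. Without a filter on dim probes they were 194 and 100. With the slide as replicate block they were 307 and 130, of which 50 had an adjusted p under 0.05. With 1 array left out, the lower count ran from 57 to 1705 (1705 without KO 1) and the higher from 34 to 510 (510 without KO 1).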
